A study of Mus musculus with 12 samples.

Results

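TRIM genes encode tripartite motif proteins, and most of them are RING-type ubiquitin ligases. The expression of this gene family was examined in myeloid-derived suppressor cells (MDSCs) sorted from mouse liver tumors. Every gene symbol made of Trim, a number and at most 1 further letter was taken, which gave 66 of the 24346 symbols measured. The 35 of these with an FPKM of at least 1 in 2 or more of the 12 libraries are described. FPKM is a fragment count divided by transcript length and library size, and such a level per length can be compared between genes. Both subsets came from Hepa 1-6 hepatoma tumors grown in the liver of female C57BL/6J mice, which are wild type. M-MDSCs were sorted as CD11b+ Ly-6C high Ly-6G- cells and PMN-MDSCs as CD11b+ Ly-6C intermediate Ly-6G+ cells. Each subset had 2 libraries from mice given vehicle, 2 from mice given MS-275 and 2 from mice given CXD101, which are both inhibitors of histone deacetylases 1 to 3. For the M-MDSC experiment the study describes mice of 6 to 8 weeks that received 5 mg/kg of an inhibitor or the vehicle daily for 10 days from day 10, with tumors collected on day 21. The PMN-MDSC libraries are not covered by its text, so their schedule is not stated here. The model is limited to 1 transplanted tumor line, and mice were selected by the share of MDSCs in their blood.

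TRIM proteins carry a RING domain that recruits a ubiquitin-conjugating enzyme, 1 or more B-box domains and a coiled coil, followed by a C-terminal region that differs between members and binds the target. Many members act in innate immunity, where they attach ubiquitin to sensors of viral nucleic acid or to adaptors of inflammatory signalling, and many are themselves induced by interferon. Others repress transcription on chromatin or bind microtubules. Trim6, Trim32 and Nedd4 are the ubiquitin ligase genes that the study found among genes raised by both inhibitors in M-MDSCs with more open promoters. It then followed Nedd4, since its prediction of ligases for the receptor CCR2 did not return the other genes. The study's set came in part from the M-MDSC libraries used here. The M-MDSC values of Trim6 and Trim32 are therefore not independent evidence of their direction.

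The spacing of low FPKM values corresponds to about 8.32 to 10.6 M reads per M-MDSC library and 6.93 to 8.06 M reads per PMN-MDSC library. Log2 values of replicate libraries correlated across genes with r of 0.988 to 0.991, where genes are not independent replicates, and no 2 libraries were identical. The study calls its M-MDSC libraries biological replicates. Nothing in the sources used here says so for the PMN-MDSC libraries, so their p-values measure only the spread between these samples. Markers of the sorted subsets were present in both. Under vehicle, the 7 monocyte markers (Itgam included) summed to 1878 and 1947 FPKM in M-MDSCs and to 1558 and 1562 in PMN-MDSCs. With an inhibitor the sums were 2552 to 2941 in M-MDSCs and 2428 to 2660 in PMN-MDSCs. In PMN-MDSCs Ly6c2 was at 511 and 455.3 FPKM with vehicle and 1418 to 1677 with an inhibitor. It was at 1360 and 1306 in M-MDSCs with vehicle. Ccr2 was at 124.1 to 147.1 FPKM in M-MDSC libraries and 27.5 to 40.7 in PMN-MDSC libraries. The 9 neutrophil markers found (Itgam again included) summed to between 11596 and 26240 FPKM in M-MDSC libraries and between 70725 and 291239 FPKM in PMN-MDSC libraries. In M-MDSCs with vehicle most of the sum was S100a8, at 6434 and 5693 FPKM, and S100a9, at 4915 and 4869. Ngp was at 470.1 and 543.8 there. Retnlg was low, at 1.64 and 5.14 against 286.7 and 412.4 in PMN-MDSCs with vehicle, as was Cxcr2, at 2.82 and 3.11 against 80.8 and 109.1. Ly6g was not analysed here. Alb, which marks hepatocytes, was listed at 0 in 11 libraries. Afp, from the same list of hepatocyte and liver tumor markers, was at 1.04 to 2.29 FPKM over the 12 libraries.

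The described TRIM genes covered a wide range of levels. In all, 12 had a mean of at least 10 FPKM over the 12 libraries, 16 of 3 to under 10 and 7 of under 3, with a median of 7.97. Of the 35 genes, 28 reached 1 FPKM in all 12 libraries. Trim28, which encodes the corepressor of KRAB zinc finger proteins, had the highest mean at 56.4 FPKM. It was followed by Trim11 at 33.8, Trim25 at 29.8, Trim14 at 25.2 and Trim12a at 20.9. Trim25 encodes a ligase that acts on the RNA sensor RIG-I, and Trim14 encodes a member without a RING domain that takes part in mitochondrial antiviral signalling. The order within these leading genes depended on the subset. Trim28 was first in all M-MDSC libraries, at 69.9 to 77.1 FPKM, while Trim11 and Trim25 stood above it in all 4 PMN-MDSC libraries from inhibitor-treated mice.

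**Figure D1:**
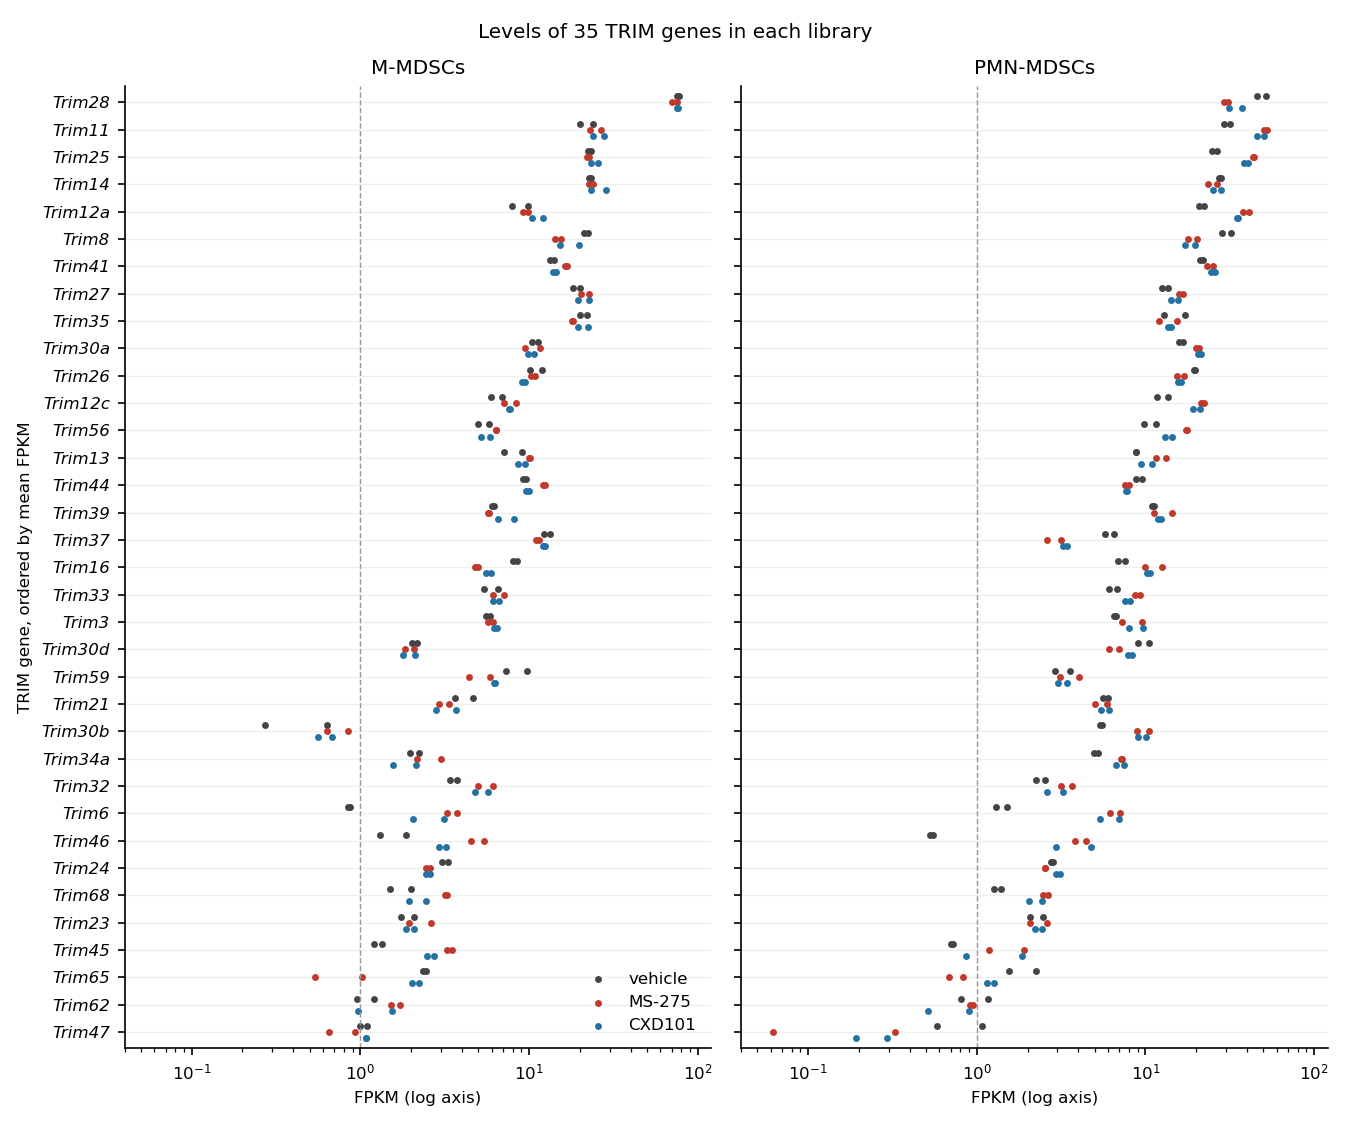
FPKM of the 35 described TRIM genes in each library, on a log axis, for M-MDSCs (left) and PMN-MDSCs (right). Each point is 1 library, coloured by treatment, genes are ordered by their mean over 12 libraries, and the dashed line marks 1 FPKM. Trim28 leads with a mean of 56.4 FPKM, and Trim30b lies under 1 FPKM in every M-MDSC library.

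At the lower end, the rule of 1 FPKM separated genes of nearly the same level. Trim47 was just inside it, with a second highest value of 1.09 FPKM, as was Trim62 with 1.55. Trim43c was just outside, with a highest value of 1.004 and a second highest of 0.951, and Trim7 reached 0.966. Of the 31 symbols not described, 11 were listed at 0 in every library and 20 were above 0 in at least 1. Trim38 was listed at 0 in 11 libraries. The summed FPKM of the described genes was 352.3 to 378.0 in M-MDSC libraries, 389.6 to 396.4 in PMN-MDSC libraries from vehicle-treated mice and 433.4 to 463.9 in those from inhibitor-treated mice. As a share of all FPKM in the library it was not higher in the last group, at 0.0578% and 0.0603% with vehicle and 0.0504% to 0.0550% with an inhibitor. S100a8 and S100a9 alone took 10.2% and 13.7% of the FPKM of PMN-MDSCs from vehicle-treated mice and 27.3% to 30.9% after an inhibitor.

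The first comparison asked how the subsets differed in vehicle-treated mice. Of the 10 described TRIM genes in a stretch of chromosome 7 near the beta-globin genes, 5 were called higher in PMN-MDSCs and none lower. The chromatin corepressor gene Trim28 was lower there, as were Trim37, Trim46 and Trim59. Differences are given as log2(FPKM + 1) with their standard error (SE), which understates the change of genes of low level, and a gene was called at a Benjamini-Hochberg adjusted p under 0.05 in limma with a fold change above 1.5. Of the 35 members, all tested here, 9 were called higher and 4 lower, which is 25.7% and 11.4% of them, while 17.2% and 16.8% of all 11662 genes tested were called higher and lower. The median difference of the members was 0.17, beside -0.01 for all genes. In bulk RNA, fewer cells of a type and less RNA per cell cannot be told apart.

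Genes of the chromosome 7 cluster made up 5 of the 9 higher members. The cluster here means the 10 described members between positions 102557921 and 105633571 of GRCm38, which are not evenly spaced. Trim6, Trim34a, Trim12a, Trim12c, Trim30b, Trim30a and Trim30d lie close together, between 104218793 and 104507849. Trim21 and Trim68 end by 102687327, and Trim3 starts at 105604463. All 5 higher genes are in the close group, so the share of 5 in 10 depends on how wide the stretch is drawn. Trim30b and Trim30d are paralogs of Trim30a, a restrainer of Toll-like receptor signalling. Trim12a and Trim12c are rodent relatives of the primate restriction factor TRIM5, and Trim34a is a neighbour of Trim6. Trim30b was at 0.630 and 0.271 FPKM in the M-MDSC libraries and at 5.38 and 5.53 in the PMN-MDSC libraries. It entered this comparison through its PMN-MDSC values alone, and its groups lay far apart (2.17, SE 0.14, adjusted p = 4.08e-07 in limma). Trim30d was at 2.16 and 2.02 FPKM in M-MDSCs and at 9.03 and 10.5 in PMN-MDSCs (1.80, SE 0.12, limma adjusted p = 3.29e-07). Both PMN-MDSC libraries were thus several times above both M-MDSC libraries for this pair of genes. Trim12a was at 9.79 and 7.88 FPKM in M-MDSCs and at 20.7 and 22.2 in PMN-MDSCs (1.20, SE 0.10, limma adjusted p = 2.64e-06). Trim34a was at 1.96 and 2.21 FPKM in M-MDSCs and at 4.97 and 5.201 in PMN-MDSCs (0.98, SE 0.14, limma adjusted p = 0.000118). Trim12c was at 6.95 and 5.99 FPKM against 11.8 and 13.5, a difference of 0.87. No library of a subset overlapped with the other subset in any of these 5 genes. The other 5 described members of the cluster, Trim3, Trim6, Trim21, Trim30a and Trim68, were not called, and Trim68 was lower in both PMN-MDSC libraries, at 1.39 and 1.27 FPKM against 2.01 and 1.501. Reads of such close paralogs may be shared between them in counting, so the split within the Trim30 and Trim12 groups is uncertain.

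Promoter stretches are shown for the members that hold a short motif, which include 4 of these 5 genes. The window of Trim30b, the gene with the largest difference, does not hold it. RefSeq promoter windows of GRCm38.p6, which hold 250 bases before and 50 after a gene start, were found for 27 of the 35 members and searched on both strands for GAAANNGAAA, the core of the interferon-stimulated response element. Its reverse complement is TTTCNNTTTC, and matches may overlap each other. The motif occurred in windows of 7 of the 27 members (25.9%), against 339 of 8927 genes of the same FPKM rule (3.80%) and 1079 of 27025 genes with a window (3.99%). The matches are in capitals, with bases around them in lower case, and each line is read along the strand of the gene.
Trim12a: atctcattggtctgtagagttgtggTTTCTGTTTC
Trim12c: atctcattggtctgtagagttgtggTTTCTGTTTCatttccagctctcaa
Trim30a: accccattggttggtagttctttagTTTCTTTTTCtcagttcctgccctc
Trim30d: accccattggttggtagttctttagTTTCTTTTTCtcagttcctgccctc
Trim34a: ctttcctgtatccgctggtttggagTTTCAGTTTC
Trim21: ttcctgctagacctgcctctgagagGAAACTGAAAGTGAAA
Trim26: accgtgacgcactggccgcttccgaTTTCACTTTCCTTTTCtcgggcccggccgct
The stretch of Trim12a is at chr7:104315476-104315510 on the minus strand, and that of Trim12c at chr7:104353354-104353403 on the same strand. The 2 are identical over 35 bases. Trim30a and Trim30d, at chr7:104465205-104465254 and chr7:104507866-104507915 on the minus strand, have the same 50 bases. Trim34a is at chr7:104244442-104244476 on the plus strand, Trim21 at chr7:102565454-102565494 on the minus strand and Trim26 at chr17:36836961-36837016 on the plus strand. The matches shown for Trim12c, Trim30a, Trim30d and Trim26 begin 29, 36, 41 and 160 bases before the RefSeq start. Those of Trim12a, Trim34a and Trim21 begin after it. For Trim12a this depends on the annotation. Its GENCODE gene, on the minus strand, starts at 104315466, so the match lies before that start. Trim30a has a further RefSeq window that holds the motif, not shown, at chr7:104446114-104446148. The match there begins 2 bases after the start. Of the 7 members with the motif, 5 were called higher in PMN-MDSCs and none lower, with a median difference of 0.87. The 20 members whose windows did not hold it had 4 higher and 4 lower, with a median of -0.10. Trim21 and Trim30a carried the motif and were not called. Over all genes tested, 17.2% were called higher and 16.8% lower. All carriers but Trim26 lie in the chromosome 7 cluster, and some of them share the same stretch. They are therefore not separate occurrences, neither for the share of windows with the motif nor for the count of calls. A match describes the letters of the window and is not a measured binding site.

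The other members that were higher in PMN-MDSCs lie elsewhere. Trim56, which encodes a ligase of STING and Toll-like receptor signalling, was at 4.99 and 5.75 FPKM in M-MDSCs and at 9.76 and 11.6 in PMN-MDSCs (0.87, SE 0.11, limma adjusted p = 3.51e-05). Trim26 was at 10.1 and 11.8 FPKM against 19.5 and 19.3, a difference of 0.77. Trim39 differed by 0.76 and Trim41 by 0.62, the latter not called without the first M-MDSC vehicle library (0.58) or under quantile normalization (0.57). The libraries of the subsets did not overlap in these genes. Exons of Trim41 overlap those of the highly expressed ribosomal gene Gnb2l1 on the other strand, and whether fragments were counted by strand is not given in the sources used here. Gnb2l1 itself was lower in PMN-MDSCs by -0.87 log2 units.

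The lower members were Trim59, Trim37, Trim28 and Trim46. Of the 17 tested members of a list of TRIM regulators of innate sensing and inflammatory signalling, 4 were higher (Trim26, Trim39, Trim41 and Trim56) and 1 was lower (Trim59), beside the 17.2% and 16.8% of all genes. Trim59, whose product is anchored in a membrane, was at 9.70 and 7.34 FPKM in M-MDSCs and at 3.56 and 2.89 in PMN-MDSCs (-1.17, SE 0.16, limma adjusted p = 0.00011). Trim37, which limits centriole assembly, was at 13.2 and 12.2 FPKM against 6.48 and 5.74 (-0.95, SE 0.10, limma adjusted p = 1.23e-05). Trim28 was at 75.8 and 77.1 FPKM against 52.1 and 46.0 (-0.63, SE 0.09, limma adjusted p = 0.000106). All of these were lower in both PMN-MDSC libraries than in either M-MDSC library. Without the second PMN-MDSC vehicle library the difference of Trim28 was -0.54 and no longer called. Trim46, a microtubule-binding member of the COS-box group, was at 1.87 and 1.31 FPKM against 0.547 and 0.526 (-0.75, SE 0.18, limma adjusted p = 0.00393). Its exons overlap those of Krtcap2 on the other strand, and Krtcap2 was also lower in PMN-MDSCs, by -1.32 log2 units. Any part of Krtcap2 reads in the value of Trim46 was not tested.

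**Figure D2:**
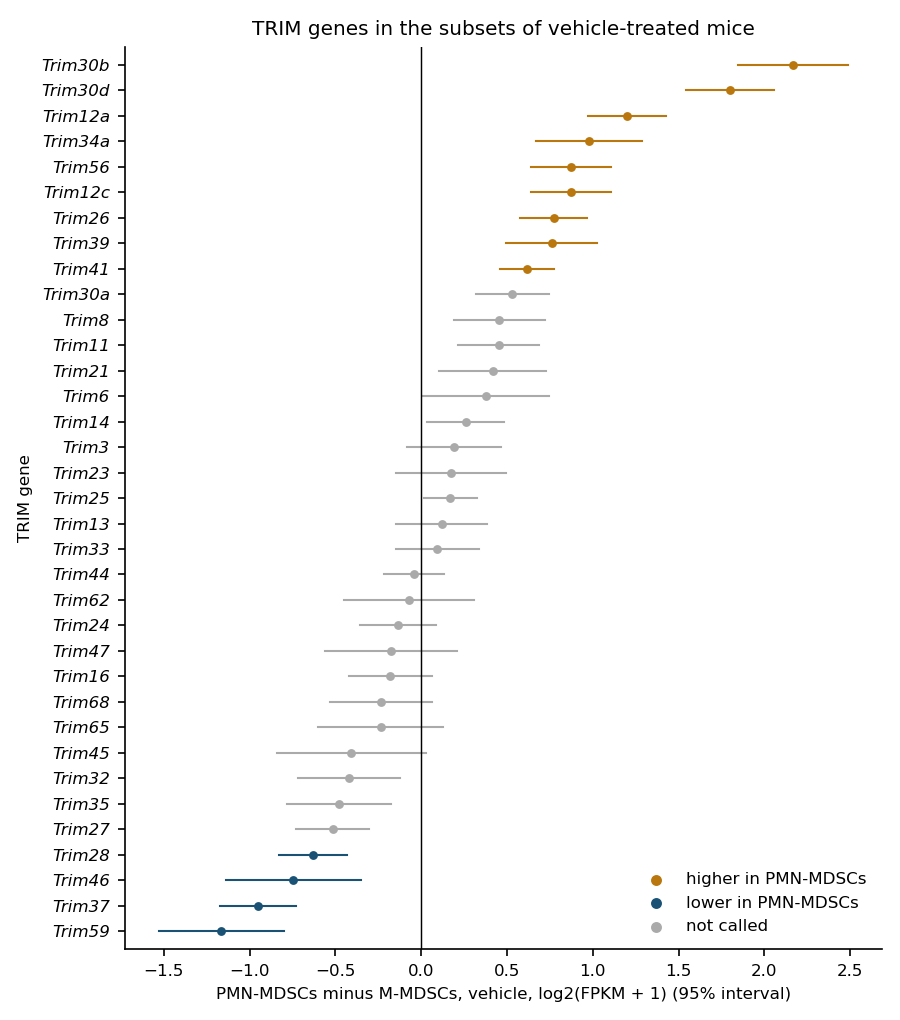
Difference between PMN-MDSCs and M-MDSCs of vehicle-treated mice for 35 TRIM genes, in log2(FPKM + 1), with the unadjusted 95% interval from limma. Orange marks the 9 genes called higher in PMN-MDSCs, led by Trim30b at 2.17, and blue the 4 called lower, with Trim59 at -1.17.

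The next comparison asked which TRIM genes changed in M-MDSCs under the inhibitors. MS-275 raised Trim6, Trim46, Trim45 and Trim68 and lowered Trim65, Trim16 and Trim59. CXD101 raised Trim6, Trim45 and Trim46. Of the 34 members tested, 4 were called higher and 3 lower with MS-275, beside 10.1% and 7.32% of all 11078 genes tested, and 3 were called higher with CXD101, beside 5.14%. No member was called lower with CXD101 in limma, beside 3% of all genes, although 3 members were lower at an unadjusted p under 0.05. The shares of the members were 11.8% and 8.82% with MS-275 and 8.82% with CXD101, which is near those of all genes. The median change of the members was 0.08 with MS-275 and 0.05 with CXD101, beside -0.06 and -0.02 for all genes. Both inhibitors were compared with the same 2 vehicle libraries.

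Trim6 encodes a ligase that makes unanchored polyubiquitin chains in the interferon response. On GRCm38 it occupies positions 104218793 to 104235152 of chromosome 7, plus strand. In M-MDSCs it was at 0.867 and 0.849 FPKM with vehicle, at 3.26 and 3.76 with MS-275 and at 2.04 and 3.15 with CXD101. The vehicle libraries were below all 4 libraries from inhibitor-treated mice, and the gene passed the filter on low values only through the latter. Its means were 4.09-fold higher with MS-275 (1.28, SE 0.17, limma adjusted p = 0.000524) and 3.02-fold higher with CXD101 (0.93, SE 0.17, limma adjusted p = 0.00598). Trim32, an NHL-repeat ligase known from muscle disease, was at 3.72 and 3.38 FPKM with vehicle, at 6.11 and 4.98 with MS-275 and at 5.68 and 4.78 with CXD101. Its mean FPKM was 1.56-fold higher with MS-275 and 1.47-fold higher with CXD101. The study counts Trim32 among genes raised by both inhibitors, from its own fit with the same limits of adjusted p and fold change. Trim32 was not called here with either inhibitor. Its libraries did not overlap either, but the differences were below the 1.5-fold limit on the log2(FPKM + 1) scale, with 0.52 for MS-275 (SE 0.13, limma adjusted p = 0.0117) and 0.45 for CXD101 (SE 0.13, limma adjusted p = 0.0389). With a pseudocount of 0.1 or without the second MS-275 library the MS-275 difference was 0.62 or 0.64 and was called.

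Trim46 was at 1.87 and 1.31 FPKM with vehicle, at 5.39 and 4.53 with MS-275 and at 3.20 and 2.94 with CXD101. Both MS-275 libraries were highest and both vehicle libraries lowest. The change was 1.21 with MS-275 (SE 0.15, limma adjusted p = 0.000335) and 0.66 with CXD101 (SE 0.15, limma adjusted p = 0.0142). The CXD101 call of Trim46 was lost without any 1 of 3 libraries, the second vehicle library (0.50) and the first (0.61) and second (0.71) CXD101 libraries, and under quantile normalization (0.53). Krtcap2, which overlaps it, went from 267.7 and 278.2 FPKM with vehicle to 309.3 and 296.5 with MS-275 and to 316.9 and 308.5 with CXD101, differences of 0.15 and 0.20 that were not called.

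Trim45, which encodes a repressor of MAP kinase signalling, was at 1.33 and 1.20 FPKM with vehicle, at 3.48 and 3.25 with MS-275 and at 2.72 and 2.49 with CXD101. Its 3 groups were fully separated, in the same order as those of Trim46. The change was 0.95 with MS-275 (SE 0.12, limma adjusted p = 0.000484) and 0.67 with CXD101 (SE 0.12, limma adjusted p = 0.00652), the latter 0.52 and not called under quantile normalization. Trim68, a coactivator of the androgen receptor, was at 2.01 and 1.501 FPKM with vehicle and at 3.19 and 3.24 with MS-275 (0.62, SE 0.15, limma adjusted p = 0.00904). With CXD101 it was at 2.46 and 1.93, which overlapped with vehicle. The MS-275 call of Trim68 was lost under quantile normalization (0.41) and without the second vehicle library (0.49).

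Among the lower members, Trim65, a ligase of the RNA sensor MDA5, was at 2.44 and 2.34 FPKM with vehicle and at 1.03 and 0.535 with MS-275 (-0.94, SE 0.16, limma adjusted p = 0.00205). With CXD101 it was at 2.22 and 2.02, close to vehicle. Exons of Trim65 overlap those of Trim47 on the same strand, so reads may be shared between them in counting. Trim47 was at 1.10 and 0.996 FPKM with vehicle, at 0.650 and 0.930 with MS-275 and at 1.07 and 1.09 with CXD101, and was not called. Any part of Trim47 reads in the value of Trim65 was not tested. Trim16, which lacks a RING domain and takes part in the response to damaged lysosomes, was at 8.07 and 8.52 FPKM with vehicle, at 4.78 and 4.98 with MS-275 and at 5.95 and 5.57 with CXD101. All 4 libraries from inhibitor-treated mice were below both vehicle libraries. The change was -0.66 with MS-275 (SE 0.10, limma adjusted p = 0.000836) and -0.46 with CXD101 (SE 0.10, limma adjusted p = 0.011), the latter under the 1.5-fold limit. Trim59 was at 9.70 and 7.34 FPKM with vehicle and at 4.41 and 5.89 with MS-275 (-0.63, SE 0.15, limma adjusted p = 0.0103). That call rested on the first library of each group, since the change was -0.45 without the first vehicle library and -0.46 without the first MS-275 library.

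The same question was asked in PMN-MDSCs. Trim6 and Trim46 rose most. Trim11, Trim12a, Trim12c, Trim25 and Trim30b rose with both inhibitors, Trim56 and Trim68 were called with MS-275, and Trim37 and Trim8 fell with both, while Trim28 and Trim65 were called lower with MS-275. Of the 33 members tested, 9 were called higher and 4 lower with MS-275 (27.3% and 12.1%), beside 14.6% and 14.2% of all 11184 genes tested. With CXD101, 7 were called higher and 2 lower (21.2% and 6.06%), beside 11.9% and 9.54% of all genes. The median change of the members was 0.29 with MS-275 and 0.20 with CXD101, beside -0.03 for all genes in both. Here too the inhibitors shared their vehicle libraries.

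Trim6 was at 1.52 and 1.31 FPKM with vehicle, at 6.17 and 7.05 with MS-275 and at 5.34 and 7.01 with CXD101 in PMN-MDSCs. Each library from inhibitor-treated mice was several times above both vehicle libraries, by 4.67-fold in the means with MS-275 (1.66, SE 0.15, limma adjusted p = 9.71e-05) and 4.37-fold with CXD101 (1.56, SE 0.15, limma adjusted p = 0.000211). Trim46 was at 0.547 and 0.526 FPKM with vehicle, at 3.80 and 4.45 with MS-275 and at 4.74 and 2.96 with CXD101. It passed the filter through the libraries of inhibitor-treated mice, and its changes were the largest of the members, at 1.74 with MS-275 (SE 0.19, limma adjusted p = 0.000243) and 1.63 with CXD101 (SE 0.19, limma adjusted p = 0.00049). Krtcap2 differed by 0.06 and -0.05 in the same comparisons and was not called. Trim6 and Trim46 were the only 2 members called higher in all 4 comparisons of an inhibitor with vehicle. Trim32 was at 2.26 and 2.55 FPKM in PMN-MDSCs with vehicle, at 3.14 and 3.64 with MS-275 and at 3.23 and 2.62 with CXD101. It was above vehicle in each of these libraries and was not called with either inhibitor.

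Of the 17 tested TRIM regulators of innate sensing and inflammatory signalling, 3 rose (Trim25, Trim56 and Trim68) and 2 fell (Trim8 and Trim65) with MS-275, and 1 rose (Trim25) and 1 fell (Trim8) with CXD101. These counts are read beside 14.6% and 14.2% of all genes with MS-275 and 11.9% and 9.54% with CXD101, so they are no result about the list. Trim25 was at 24.7 and 26.6 FPKM with vehicle, at 43.7 and 44.0 with MS-275 and at 40.7 and 38.4 with CXD101. The change was 0.75 with MS-275 (SE 0.07, limma adjusted p = 0.000135) and 0.61 with CXD101 (SE 0.07, limma adjusted p = 0.000556). Its vehicle libraries were the lowest and did not overlap with the others. Trim12a was at 20.7 and 22.2 FPKM with vehicle, at 40.8 and 37.8 with MS-275 and at 35.3 and 34.7 with CXD101. The change was 0.84 with MS-275 (SE 0.08, limma adjusted p = 9.86e-05) and 0.68 with CXD101 (SE 0.08, limma adjusted p = 0.000419). Its relative Trim12c, which shares the promoter stretch shown above, changed by 0.74 and 0.63. Trim30b was at 5.38 and 5.53 FPKM with vehicle, at 10.5 and 8.88 with MS-275 and at 9.08 and 10.1 with CXD101, changes of 0.73 and 0.71. Trim30d, whose promoter stretch equals that of Trim30a, was at 9.03 and 10.5 FPKM with vehicle and at 6.97 and 6.11 with MS-275, below vehicle, and its difference of -0.51 was called without the first vehicle library (-0.61) or the first MS-275 library (-0.60). Trim30a itself was at 15.7 and 16.7 FPKM with vehicle and at 20.0 and 20.8 with MS-275, a difference of 0.32 that was not called. As said above, the split of reads within this group is uncertain. Trim56 was at 9.76 and 11.6 FPKM with vehicle, at 17.6 and 17.5 with MS-275 (0.67, SE 0.11, limma adjusted p = 0.00132) and at 13.0 and 14.3 with CXD101 (0.33, SE 0.11, limma adjusted p = 0.0359). Trim11 was at 31.5 and 29.3 FPKM with vehicle, at 50.2 and 52.6 with MS-275 and at 50.7 and 46.0 with CXD101, changes of 0.74 and 0.65. Trim68 was at 1.39 and 1.27 FPKM with vehicle and at 2.64 and 2.47 with MS-275 (0.61, SE 0.14, limma adjusted p = 0.00858). With CXD101 it was at 2.05 and 2.42, also above vehicle, and was called only with a pseudocount of 0.1 (0.70). Trim45 was at 0.720 and 0.699 FPKM with vehicle, at 1.91 and 1.18 with MS-275 and at 1.86 and 0.858 with CXD101. Its libraries did not overlap with vehicle, and neither change was called.

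Single libraries or the scaling decided several of these calls. Without the first vehicle library, Trim56 (0.56) was lost with MS-275, and Trim12c (0.54) and Trim25 (0.56) were lost with CXD101. Without the first CXD101 library, Trim11 (0.58), Trim12c (0.57) and Trim25 (0.57) were lost with CXD101. For Trim68 with MS-275, the change was 0.57 without either the second vehicle library or the first MS-275 library. The values without a library lay just under the 1.5-fold limit of 0.585 on the log2 scale. Under quantile normalization the Trim68 change was 0.44 and also lost the call.

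Of the 7 members with the promoter motif, 2 were called higher and none lower with each inhibitor in PMN-MDSCs. Of the 18 tested members whose windows did not hold it, 6 were called higher and 2 lower with MS-275, and 4 higher and 1 lower with CXD101. Over all genes tested, 14.6% were called higher and 14.2% lower with MS-275, and 11.9% and 9.54% with CXD101. With so few members these counts are no result about the motif. In M-MDSCs, none of the 7 was called in limma with either inhibitor. There, 10.1% of all genes were called higher and 7.32% lower with MS-275, and 5.14% and 3% with CXD101. Trim6, Trim45, Trim46 and Trim68 have a window without the motif.

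Trim28 was at 52.1 and 46.0 FPKM in PMN-MDSCs with vehicle, at 30.7 and 29.2 with MS-275 and at 37.2 and 31.1 with CXD101. Both inhibitors lay below vehicle without overlap. The change was -0.69 with MS-275 (SE 0.10, limma adjusted p = 0.00105) and -0.51 with CXD101 (SE 0.10, limma adjusted p = 0.00563), the latter under the 1.5-fold limit. Without the second vehicle library (-0.60) or the first CXD101 library (-0.64) the CXD101 difference was called. Its relatives of the TIF1 group, which also pair a TRIM motif with a chromatin-reading domain, are Trim24 and Trim33. Trim24 differed by -0.10 with MS-275 and Trim33 by 0.42, and neither was called. Trim37 was at 6.48 and 5.74 FPKM with vehicle, at 3.15 and 2.60 with MS-275 and at 3.24 and 3.42 with CXD101, so it was at about the same level with both inhibitors. The change was -0.88 with MS-275 (SE 0.13, limma adjusted p = 0.00108) and -0.71 with CXD101 (SE 0.13, limma adjusted p = 0.00382). Trim8, which binds the signalling inhibitor SOCS1, was at 32.1 and 28.6 FPKM with vehicle, at 17.99 and 20.3 with MS-275 and at 19.5 and 17.1 with CXD101 (-0.64 and -0.70). Without the first vehicle or the first MS-275 library its MS-275 change was -0.56 and not called, and under quantile normalization it was -0.57 and not called. Trim65 was at 2.25 and 1.54 FPKM with vehicle and at 0.689 and 0.827 with MS-275 (-0.71, SE 0.18, limma adjusted p = 0.0107). That call was lost without the first vehicle library (-0.53) or the first MS-275 library (-0.65). With CXD101 Trim65 was at 1.15 and 1.26 FPKM, also below vehicle, and was not called. Trim47, whose exons overlap those of Trim65, was at 1.07 and 0.580 FPKM with vehicle and at 0.328 and 0.0623 with MS-275. With CXD101 it was at 0.293 and 0.193, and it was too low to be tested in PMN-MDSCs.

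**Figure D3:**
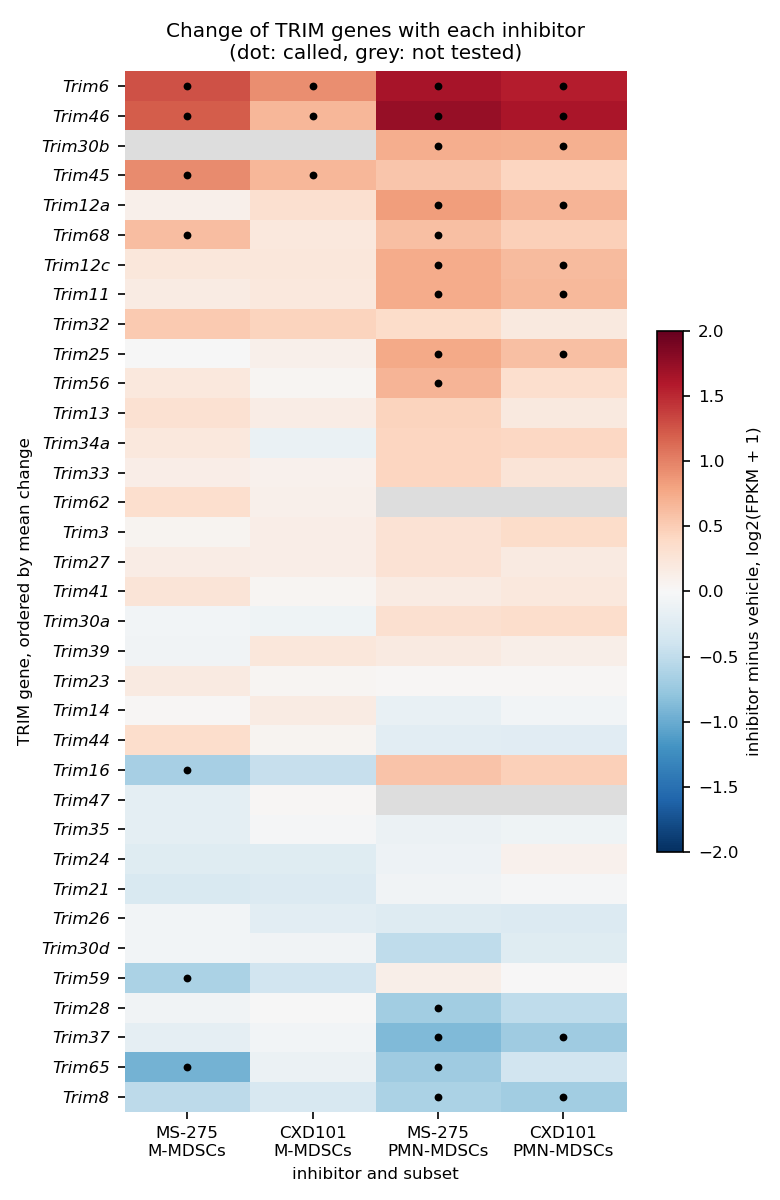
Change of each TRIM gene with each inhibitor against vehicle, in log2(FPKM + 1), as colour (red higher, blue lower), in the 2 subsets. A dot marks a called gene and grey a gene that was not tested in the subset, with genes ordered by the mean of their tested changes. Trim6 and Trim46 are called in all 4 columns, and most other calls lie in the PMN-MDSC columns.

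**Figure D4:**
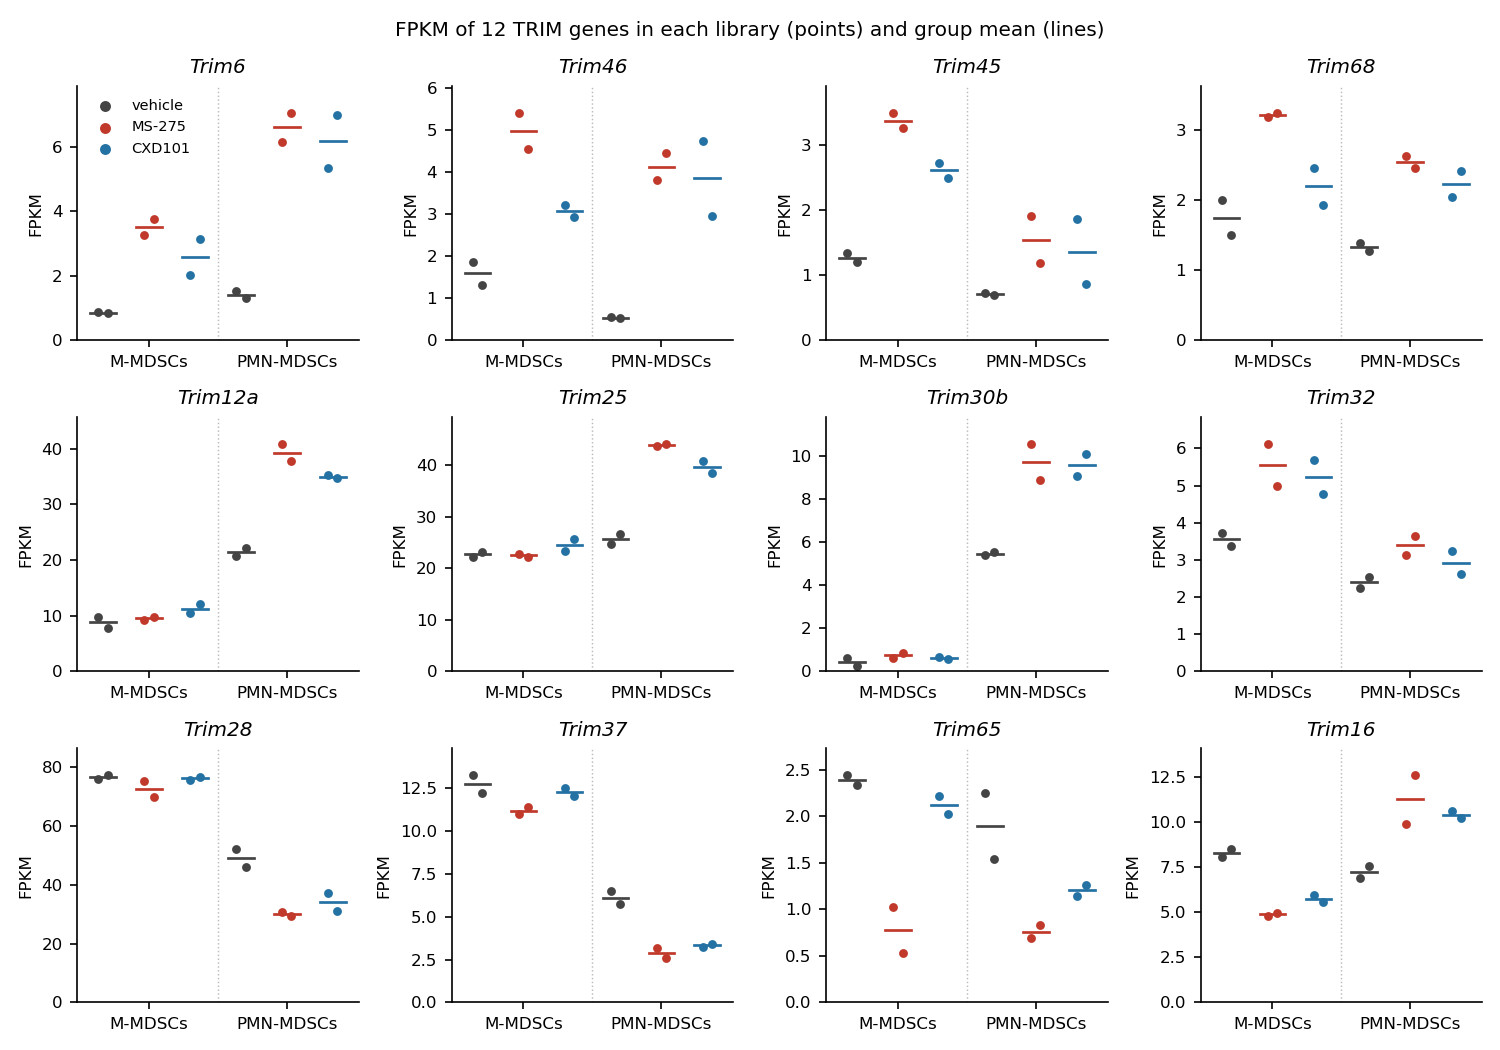
FPKM of 12 TRIM genes in each library (points), with the group mean (line), in M-MDSCs and PMN-MDSCs of mice given vehicle (grey), MS-275 (red) or CXD101 (blue). Trim6 rises with both inhibitors in both subsets, from 0.849 to 1.52 FPKM over the 4 vehicle libraries to between 2.04 and 7.05 over the 8 others, while Trim16 lies at 4.78 to 5.95 FPKM with an inhibitor in M-MDSCs and at 9.91 to 12.6 FPKM in PMN-MDSCs.

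MS-275 and CXD101 were given at the same dose in the M-MDSC experiment, so the 2 inhibitors were compared directly. In M-MDSCs, Trim65 was the 1 member called, at 1.03 and 0.535 FPKM with MS-275 and 2.22 and 2.02 with CXD101 (-0.82, SE 0.16, limma adjusted p = 0.0154). It was 1 of 34 members, beside 1.17% of all genes called lower with MS-275 than with CXD101. As said above, its exons overlap those of Trim47 on the same strand. The call was lost without the second MS-275 library (-0.62), the first CXD101 library (-0.78) or the second CXD101 library (-0.87). No member was called higher in limma, beside 3.22% of all genes, while 4 members were higher at an unadjusted p under 0.05. Trim46 was one of these, with a difference of 0.55 (95% interval 0.21 to 0.88, limma adjusted p = 0.0426), under the 1.5-fold limit. Trim6 differed by 0.34 (95% interval -0.04 to 0.73) and Trim45 by 0.28 (95% interval -0.0044 to 0.56). In PMN-MDSCs no member was called in either direction in limma, beside 0.465% of all genes called higher and 0.34% lower, and 1 member was different at an unadjusted p under 0.05. The difference of Trim6 there was 0.09 (95% interval -0.26 to 0.45) and that of Trim46 was 0.10 (95% interval -0.35 to 0.55). These intervals are from limma, are not adjusted, and leave room for differences of a size that would have been called only for some genes, so similar action of the inhibitors was not shown.

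The subsets were then compared in their response, as the change in PMN-MDSCs minus the change in M-MDSCs. With MS-275, 4 of 35 members were called higher in this difference and 2 lower, beside 8.65% and 9.48% of all 11662 genes. With CXD101, 2 were called higher and 1 lower, beside 7.31% and 6.59%. The median over the members was 0.15 and 0.17, beside 0.02 and -0.01 for all genes. Trim16 fell in M-MDSCs with MS-275 and lay above vehicle in PMN-MDSCs, and its difference of response was 1.23 with MS-275 (SE 0.15, limma adjusted p = 0.000296) and 0.94 with CXD101 (SE 0.15, limma adjusted p = 0.00191). In PMN-MDSCs it was at 6.88 and 7.54 FPKM with vehicle, at 9.91 and 12.6 with MS-275 and at 10.6 and 10.2 with CXD101, above vehicle in all 4 libraries, and these differences of 0.57 and 0.48 were under the 1.5-fold limit. Without the second PMN-MDSC vehicle library (0.63) or the first MS-275 library (0.73) the MS-275 difference was called. Fbxw10, whose exons overlap those of Trim16 on the same strand, was under 0.4 FPKM in every library. Trim37 had a difference of -0.70 with MS-275 (SE 0.14, limma adjusted p = 0.00411) and -0.66 with CXD101 (SE 0.14, limma adjusted p = 0.0073). It was at 10.96 to 12.5 FPKM in the M-MDSC libraries from inhibitor-treated mice, close to 13.2 and 12.2 with vehicle. Trim25 differed in its MS-275 response by 0.76 (SE 0.10, limma adjusted p = 0.000347), since its M-MDSC values stayed at 22.2 to 23.2 FPKM with vehicle and MS-275. Trim12a differed by 0.74 with MS-275 (SE 0.15, limma adjusted p = 0.00362). Trim28 differed by -0.62 (SE 0.13, limma adjusted p = 0.00429), and the call was lost without the first M-MDSC MS-275 library (-0.56), the first PMN-MDSC vehicle library (-0.53) or the second PMN-MDSC MS-275 library (-0.58). Trim59 differed by 0.74 (SE 0.23, limma adjusted p = 0.0339), a call that was lost without the first M-MDSC vehicle (0.56), first M-MDSC MS-275 (0.57), second PMN-MDSC vehicle (0.63) or first PMN-MDSC MS-275 library (0.59), and with no filter on low values (0.74). Trim46 differed in its CXD101 response by 0.97 (SE 0.25, limma adjusted p = 0.0184), and lost the call without the first M-MDSC vehicle (0.82), second M-MDSC CXD101 (0.93) or first PMN-MDSC CXD101 library (0.71). Trim6 was higher in the response of PMN-MDSCs by 0.38 with MS-275 and 0.63 with CXD101, and neither was called (limma adjusted p = 0.25 and 0.0753), although the CXD101 difference was 0.85 and called without the second M-MDSC CXD101 library.

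**Figure D5:**
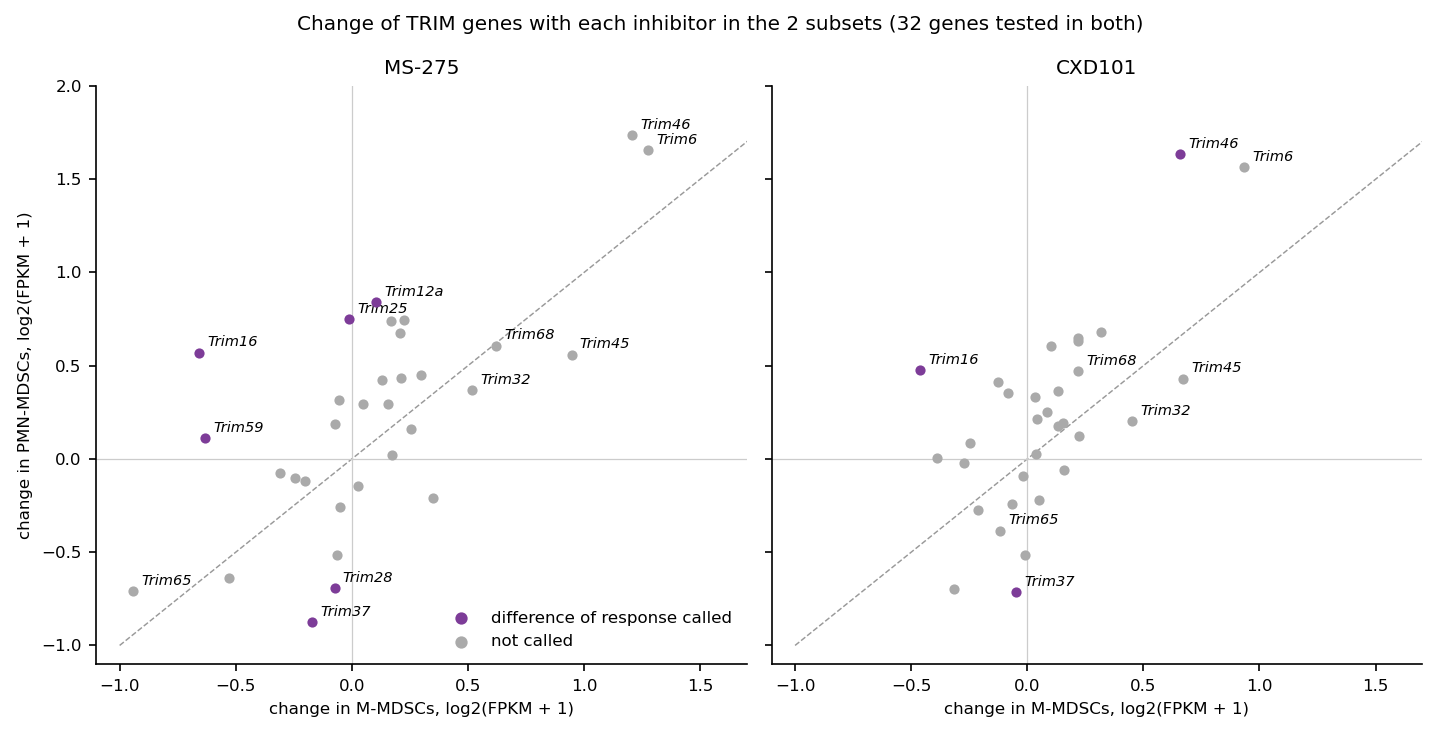
Change of 32 TRIM genes tested in both subsets, in M-MDSCs (x axis) and PMN-MDSCs (y axis), in log2(FPKM + 1), for MS-275 (left) and CXD101 (right). The dashed line marks equal change, and purple marks genes whose difference of response was called, such as Trim16, at -0.66 and 0.57 with MS-275.

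The other genes on the path of TRIM ligases were counted in lists chosen with earlier results of these data known. Over all genes, 10.1% were called higher and 7.32% lower with MS-275 and 5.14% and 3% with CXD101 in M-MDSCs, and 14.6% and 14.2% with MS-275 and 11.9% and 9.54% with CXD101 in PMN-MDSCs. Of 11 relatives of the family under other symbols, 4 were tested in M-MDSCs and 5 in PMN-MDSCs. In M-MDSCs 2 rose with MS-275 and 1 with CXD101, and in PMN-MDSCs 3 and 2 rose, with none lower. With 4 and 5 genes tested, these counts are too small to set against the shares of all genes. Mefv, which encodes the inflammasome sensor pyrin, was at 1.37 and 1.92 FPKM in M-MDSCs with vehicle, at 6.70 and 6.03 with MS-275 and at 6.15 and 5.97 with CXD101 (1.48 and 1.42). It was at 4.86 and 5.67 FPKM in PMN-MDSCs with vehicle, at 22.8 and 23.1 with MS-275 and at 16.0 and 13.3 with CXD101 (1.94 and 1.32), so every library from inhibitor-treated mice was above vehicle. Pml, the scaffold of nuclear bodies, changed by 0.67 with MS-275 in M-MDSCs and by 1.32 and 1.15 with MS-275 and CXD101 in PMN-MDSCs. Bspry was called higher with MS-275 in PMN-MDSCs (0.95), but it passed the filter there only through the 2 MS-275 libraries, at 1.10 and 1.05 FPKM, so it could be tested only because it was high in that group.

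Of 22 E1 and E2 enzymes and ubiquitin-like modifiers that TRIM ligases use, 21 were tested in M-MDSCs and 20 in PMN-MDSCs. In M-MDSCs 1 rose with MS-275 and none was called with CXD101 in limma. In PMN-MDSCs 3 rose with MS-275 and 2 with CXD101, and none fell in any of the 4 comparisons. The 1 of 21 lies under the 10.1% of all genes, and the 3 and 2 of 20 lie near 14.6% and 11.9%. Ube2l6, a conjugating enzyme for ISG15, was at 7.07 and 4.94 FPKM in M-MDSCs with vehicle and at 14.99 and 14.98 with MS-275 (1.21). In PMN-MDSCs it was at 12.7 and 9.66 FPKM with vehicle, at 22.6 and 25.3 with MS-275 and at 25.8 and 22.7 with CXD101 (1.04 and 1.06). Uba7, the activating enzyme of the same modifier, changed by 0.75 and 0.81 in PMN-MDSCs, and Isg15 itself by 0.84 with MS-275.

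Of the 18 genes of cytosolic nucleic acid sensing, all tested in both subsets, 1 rose with each inhibitor in M-MDSCs. In PMN-MDSCs 5 rose and 1 fell with MS-275, beside 14.6% and 14.2% of all genes, and 3 rose and 1 fell with CXD101, beside 11.9% and 9.54%. The list's median was 0.23 and 0.17 in PMN-MDSCs, beside -0.03 for all genes in both. Irf7, a transcription factor of interferon genes, was at 12.9 and 12.9 FPKM in PMN-MDSCs with vehicle, at 32.6 and 34.6 with MS-275 and at 33.55 and 32.02 with CXD101 (1.31 and 1.28). In M-MDSCs it was between 1.56 and 2.17 FPKM in all 6 libraries. Dhx58, an RNA helicase, was the gene that rose in M-MDSCs with both (1.21 and 0.59) and rose in PMN-MDSCs too (0.88 and 0.96), and Tank, which binds the kinase encoded by Ikbke, rose with MS-275 in PMN-MDSCs by 0.84. Ikbke, the kinase activated by chains that TRIM6 makes, was the gene that fell in PMN-MDSCs, from 126.5 and 130.3 FPKM with vehicle by -0.66 with MS-275 and -0.78 with CXD101.

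Of 11 genes of type I interferon receptor signalling, 2 rose with MS-275 in M-MDSCs (Socs1 and Usp18), none was called with CXD101 there in limma, and 1 (Socs1) rose with each inhibitor in PMN-MDSCs, beside 10.1%, 5.14%, 14.6% and 11.9% of all genes. Usp18 passed the filter in M-MDSCs only through the 2 MS-275 libraries, at 1.26 and 1.60 FPKM, so its call there depends on the group in which it was high. Socs1, a feedback inhibitor whose product binds TRIM8, changed by 0.78 with MS-275 in M-MDSCs and by 1.19 and 0.85 in PMN-MDSCs. Of 11 partners of TRIM28 in repression by KRAB zinc finger proteins, 1 rose in each of the 4 comparisons and none fell. The shares of all genes called higher were 10.1% and 5.14% in M-MDSCs and 14.6% and 11.9% in PMN-MDSCs, so 1 of 11 is no result about the list. This was Chd3, a chromatin remodeler, at 1.21 and 1.51 FPKM in M-MDSCs with vehicle, 8.22 and 8.52 with MS-275 and 8.04 and 8.502 with CXD101 (1.99 and 1.98). It changed by 2.08 and 2.04 in PMN-MDSCs. Under vehicle, 4 of these 11 partners were lower in PMN-MDSCs than in M-MDSCs, as Trim28 was, and 1 was higher, beside 16.8% and 17.2% of all genes.

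Markers of other cells moved along with these groups. The 9 neutrophil markers summed to 11596 and 12286 FPKM in M-MDSCs with vehicle, to 22266 and 26240 with MS-275 and to 22165 and 23371 with CXD101, and 5 of 9 were called higher with each inhibitor. Camp was called lower with MS-275 there, from 51.8 and 82.8 FPKM with vehicle to 26.9 and 39.5, and Ngp was at 470.1 and 543.8 against 331.4 and 372.0, a difference of -0.52 that was under the 1.5-fold limit. In PMN-MDSCs they summed to 70725 and 96540 FPKM with vehicle, 251614 and 275138 with MS-275 and 265049 and 291239 with CXD101. The 8 progenitor markers, such as Elane, summed to 1689 and 1716 FPKM in M-MDSCs with vehicle, 4695 to 5017 with MS-275 and 3962 to 4101 with CXD101. The 9 eosinophil markers summed to 160.9 to 197.4, 396.0 to 424.5 and 382.6 to 411.8 FPKM in these 3 M-MDSC groups. In the 3 PMN-MDSC groups they summed to 342.3 to 378.1, 384.3 to 422.7 and 465.8 to 492.5 FPKM. Epx was called lower there with both inhibitors, while Ccr3 was called higher with MS-275 and Ear2 with CXD101. Progenitor markers summed to 195.9 to 331.7, 371.8 to 432.9 and 374.2 to 440.8 FPKM in PMN-MDSCs. There, Kit, Elane and Spink2 were called higher with both inhibitors and Cd34 with MS-275, while Prtn3, Mpo and Ctsg were called with neither. The 9 macrophage markers summed to 192.1 to 208.9 FPKM in PMN-MDSCs with vehicle, 88.95 to 95.9 with MS-275 and 106.5 to 116.5 with CXD101. In M-MDSCs they summed to 156.5 to 160.0, 78.2 to 84.5 and 138.4 to 161.6 FPKM. These sums join macrophage markers that moved in opposite directions. C1qa, C1qb and C1qc were called lower in all 4 comparisons with vehicle, while Vcam1 was called higher in all 4. Marco was called higher with CXD101 in M-MDSCs and lower with MS-275 in both subsets. The 7 dendritic cell markers summed to 12.4 to 16.4 FPKM in PMN-MDSCs with vehicle, 3.41 to 3.71 with MS-275 and 4.75 to 4.89 with CXD101, and to 3.80 to 4.37, 0.775 to 1.24 and 1.16 to 2.09 in M-MDSCs. Ccr7 was called lower in all 4 comparisons and Cd209a in both of PMN-MDSCs. The 10 hepatocyte and liver tumor markers summed to 2.01 to 2.93 FPKM in M-MDSCs with vehicle, 8.37 to 8.67 with MS-275 and 3.83 to 4.04 with CXD101, and to 1.91 to 3.88 over the PMN-MDSC libraries. Of these, Krt18 was called higher in all 4 comparisons, from under 0.1 FPKM in each vehicle library, and passed the filter only through libraries of inhibitor-treated mice, while Fgb, Fga, Ttr, Serpina1a and Krt8 were listed at 0 in every library. The 12 lymphocyte and NK markers summed to 6.38 to 7.15, 10.2 to 11.9 and 12.2 to 13.9 FPKM in the 3 M-MDSC groups and to 4.23 to 7.30, 9.14 to 10.1 and 9.50 to 10.1 in the PMN-MDSC groups. The 7 erythroid markers summed to under 1 FPKM in every library. The part of these markers' cells in the TRIM changes was not tested.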

How the data were processed

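RNA from the sorted cells was made into stranded poly(A) libraries and sequenced as 101-base single-end reads on an Illumina instrument (6 groups, 2 libraries each). The authors deposited 1 table of FPKM per library, a value already scaled by them to library size and transcript length. The submitters' processing notes name TopHat2 2.1.1, Bowtie2 2.2.8, SAMtools 0.1.18, Cuffdiff 2.2.1 and mm10. The annotation and the strand setting of the counting are not given in the sources used here. The kit for RNA extraction differs between the labels and the paper.

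The members and lists were chosen with earlier results of these data known. log2(FPKM + 1) was fitted with limma 3.58.1 in R 4.3.3 (intensity trend) on all genes that reached 1 FPKM in 2 or more of the fitted libraries. One model held the 6 libraries of a subset, and all 12 for comparisons between subsets. Adjustment followed Benjamini-Hochberg over every gene tested. A call needed an adjusted p under 0.05 and a change of over 1.5-fold, which are the study's thresholds. The fit was tested on simulated data. No counts were used, so the depth is an estimate from the spacing of low values and no counting interval is given. Python 3.11.15, numpy 2.4.6, pandas 2.3.3 and matplotlib 3.10.9 were used for the other steps. Positions of genes are from GENCODE M21 (GRCm38), and those of promoter windows are from RefSeq.

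Named genes were Trim6 and Trim32, members called in a comparison of treatments or of responses, the 6 largest called differences between subsets in each direction, the 5 highest means, the members on either side of the FPKM rule, and at most 4 called genes per further list. Other members were named after their values were seen. Alternatives were a pseudocount of 0.1, no filter, median-of-ratios scaling, quantile normalization, a replicate block, all 12 libraries in one model and leaving out each library.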

Additional observations from a re-analysis of the deposited data

Results flagged for a closer look

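The response to an inhibitor differed between the subsets in the following gene and inhibitor pairs, by the test of the difference itself in limma (change in PMN-MDSCs minus change in M-MDSCs). With MS-275 the difference was 1.23 for Trim16, 0.76 for Trim25, 0.74 for Trim12a, 0.74 for Trim59, -0.70 for Trim37 and -0.62 for Trim28. With CXD101 it was 0.94 for Trim16, 0.97 for Trim46 and -0.66 for Trim37. Groups of 2 libraries are too small to look for a library that stands apart within its group.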

How the results depend on the processing

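Of 55 calls of a TRIM gene, 38 were kept under every alternative tried and 17 were lost under at least 1, and no call changed its direction. Quantile normalization left 1 of the 3 calls for CXD101 in M-MDSCs, Trim6, and raised the calls for the difference in CXD101 response from 3 to 5. Leaving out 1 library gave 6 to 8 calls for MS-275 and 2 to 3 for CXD101 in M-MDSCs, 0 to 1 for MS-275 against CXD101 there, 11 to 13 for MS-275 and 7 to 10 for CXD101 in PMN-MDSCs, 0 for MS-275 against CXD101 there, 12 to 14 between the subsets, and 5 to 8 (MS-275) and 2 to 4 (CXD101) for the difference in response. The other alternatives gave counts within 1.5 times those reported. The labels share replicate numbers between groups without stating a pairing, and differences between replicates 1 and 2 correlated across genes with r of -0.126 to 0.179 between groups, so the numbers were not treated as pairs. With a replicate block, the counts were 7, 3, 1, 13, 9, 0, 13, 6 and 3 in the order of the 9 comparisons (3 in M-MDSCs, 3 in PMN-MDSCs, between subsets, 2 of response), as without it. With 2 libraries a group and low FPKM, small differences could not be shown.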
